A study of Mus musculus with 229 samples.

Results

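A set of 9 genes of the neuronal microtubule cytoskeleton was followed through single-cell RNA libraries of mouse cortex and mouse glioblastoma: Dcx, Dclk1, Stmn1, Stmn2, Stmn3, Stmn4, Tubb3, Map1b and Map2. They were chosen by name and function, with earlier results of these data known. They are 9 of the 16793 gene symbols that all 4 droplet tables share. All 9 were present in every table used. The question was where RNA of these genes, most of them used as neuronal labels, was found outside neurons, and above all in glial progenitors and tumour cells.

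Microtubules are polymers of alpha- and beta-tubulin that support neurites and carry transport. Doublecortin, the product of Dcx, binds and stabilises them in migrating young neurons and is the usual label of neuroblasts, and Dclk1 encodes a relative that joins doublecortin domains to a kinase domain. Stathmins bind free tubulin dimers: Stmn1 is a cytosolic, widely expressed protein tied to the cell cycle, whereas Stmn2 (SCG10), Stmn3 (SCLIP) and Stmn4 (RB3) are membrane-anchored forms best known from neurons. Tubb3 encodes the beta-tubulin isotype recognised by the TuJ1 antibody, and Map1b and Map2 encode microtubule-associated proteins of growing axons and of dendrites. Map1b is also known from oligodendrocytes, and Map2 protein from a stage of the oligodendrocyte lineage.

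The tumour libraries were labelled as mouse glioblastoma of the cerebral cortex region, 1 by Drop-seq at dpi 25 and 1 by 10x at dpi 35. The labels neither expand dpi nor say how the tumours were induced, and no sort is given for them. The cortex cells came from pups of GFP reporter lines and were sorted as GFP-positive, 7-AAD-negative cells after TrypLE digestion. A pair of Drop-seq libraries was made from them, 1 of PDGFRa-GFP cortex at P1-3 and 1 of hGFAP-GFP cortex at P5-6, so that reporter and age changed together. The PDGFRa reporter marks oligodendrocyte progenitors (OPC) and the hGFAP reporter cells with activity of the human GFAP promoter, so each library holds only what its reporter and gate let through. Single cells captured on the Fluidigm C1 chip gave 53 P6 and 60 P3 cells of the PDGFRa-GFP line, and 61 cells of the P4 and P6 pups and 49 of the P3 pups of the hGFAP-GFP line. The strain field of the PDGFRa-GFP C1 cells reads hGFAP-gfp, against their titles, and the titles were followed. A pooled list of open-chromatin intervals (ATAC-seq) came from sorted PDGFRa-GFP cortex cells at E14.5 and P5.

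The dpi 25 library held 4955 cells and 11544233 unique molecular identifiers (UMIs, counted RNA molecules), the dpi 35 library 6054 cells and 51194749 UMIs, the PDGFRa-GFP library 3184 cells and 8166699 UMIs, and the hGFAP-GFP library 815 cells and 4196024 UMIs. Median UMIs a cell were 2063, 6582, 2013.5 and 4167 in that order. No cell barcode was shared between libraries. Levels are given as CPM, the UMIs of a gene scaled to a common total of UMIs of the library or class, with an exact Poisson 95% interval in parentheses. Each group is 1 library, so no difference has a replicate check, no p is given, and every interval covers counting error only. A gene is counted as higher or lower where its CPM ratio is at least 2-fold among genes with at least 20 UMIs. CPM sets 1 gene across cells and is not used to set 1 gene against another.

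Cells were clustered without the 9 genes and clusters were named from marker genes that exclude them. In the PDGFRa-GFP library 1095 cells were OPC-like, 907 cycling, 65 choroid plexus- or ependymal-like, 41 oligodendrocyte-like, 34 astrocyte-like and 1042 neuronal-like. The hGFAP-GFP library gave 86 OPC-like, 53 primitive OPC-like, 47 radial glia-like, 118 astrocyte-like, 157 cycling, 15 choroid plexus- or ependymal-like and 202 neuronal-like cells, with 137 left unnamed. In PDGFRa-GFP cortex the neuronal-like cells were led by interneuron genes such as Gad1 and Dlx6os1, and those of hGFAP-GFP cortex by Gad1 in 119 cells and Neurod1 in 83. Both gates therefore let neuronal-like cells through, and the level of a neuronal gene over a whole library moves with their share, 32.7% in PDGFRa-GFP and 24.8% in hGFAP-GFP cortex.

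The open-chromatin list covered the start sites of these genes. RefSeq promoter windows, 250 bases before to 50 after a start, were given for 6 of the 9 genes (Dclk1, Dcx, Map1b, Map2, Stmn3 and Tubb3), and all 8 of their windows held an interval, against 43% of the 32851 windows of all genes. The same windows shifted by 100000 bases held one in 3.4% of cases. The fold enrichments are those of the authors' deposited table, with a median of 3.54 over all intervals. Map2 had the largest among the 6 genes at 15.2 (chr1:66174870-66177015), followed by Dclk1 at 12.1 and Tubb3 at 11.6 (chr8:123410737-123412282). Stmn3 had 6.57, Map1b 5.56 (chr13:99516018-99517080) and Dcx 4.04 (chrX:143933089-143933464), the lowest. The list is pooled over its samples and takes in all GFP-positive cells, so it assigns none of these intervals to a cell type.

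Promoter windows are shown for Map2, whose RNA was found in progenitors and neurons alike, for Dcx and Tubb3, whose RNA was concentrated in neuronal-like cells, and for Map1b, which was also high in oligodendrocyte-like cells. They are RefSeq sequences of GRCm38.p6, the assembly called mm10, read 5′ to 3′ on the gene's strand, and 1 of 2 windows is given for Dcx. Capitals mark matches, on either strand, to GGGCGG (the GC box), to TATAAA (the TATA box), to CAGCTG (an E-box) and to its variant forms CAGATG (also an E-box) and CATATG (likewise), which do not overlap here.
Map2, chr1:66175079-66175378, plus strand: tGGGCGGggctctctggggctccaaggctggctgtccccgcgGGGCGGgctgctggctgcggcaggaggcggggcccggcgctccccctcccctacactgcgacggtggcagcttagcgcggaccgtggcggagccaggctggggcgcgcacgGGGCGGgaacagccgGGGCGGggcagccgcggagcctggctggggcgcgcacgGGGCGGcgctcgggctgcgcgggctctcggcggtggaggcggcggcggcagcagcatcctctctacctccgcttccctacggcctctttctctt
Dcx, chrX:143933075-143933374, minus strand: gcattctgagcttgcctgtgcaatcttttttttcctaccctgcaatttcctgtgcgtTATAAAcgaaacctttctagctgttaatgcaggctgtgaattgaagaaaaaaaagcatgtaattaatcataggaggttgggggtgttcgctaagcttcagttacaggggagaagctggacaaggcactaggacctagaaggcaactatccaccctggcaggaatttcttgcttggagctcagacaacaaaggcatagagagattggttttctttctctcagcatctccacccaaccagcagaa
Tubb3, chr8:123411303-123411602, plus strand: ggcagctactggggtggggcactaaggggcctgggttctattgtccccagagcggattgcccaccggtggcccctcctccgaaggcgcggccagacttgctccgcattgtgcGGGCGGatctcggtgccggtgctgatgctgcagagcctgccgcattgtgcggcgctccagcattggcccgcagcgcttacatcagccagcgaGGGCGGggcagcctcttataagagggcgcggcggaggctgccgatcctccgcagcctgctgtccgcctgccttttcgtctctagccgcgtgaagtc
Map1b, chr13:99516553-99516852, minus strand: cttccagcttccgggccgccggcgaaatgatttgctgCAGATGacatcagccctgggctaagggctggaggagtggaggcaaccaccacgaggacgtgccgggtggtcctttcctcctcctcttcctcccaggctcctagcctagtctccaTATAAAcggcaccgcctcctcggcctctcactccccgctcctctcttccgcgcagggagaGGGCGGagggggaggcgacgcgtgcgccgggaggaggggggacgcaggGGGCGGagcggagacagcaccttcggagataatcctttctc
The Map2 window is 77.7% G and C and held 5 GC boxes. The Tubb3 window, at 67.3%, held 2. The Dcx window, at 44.7%, held none and 1 TATA box match, and the Map1b window, at 65.7%, held 2 GC boxes, 1 TATA box match and 1 CAGATG. A GC box was found in 35.7% of all promoter windows, TATAAA in 13.6%, CAGATG in 17.2%, CAGCTG in 16.3% and CATATG in 3.91%. A match is a string of letters and not a bound site.

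Over whole libraries, the dpi 25 tumour held far less RNA of the genes that label young neurons than either cortex library, while Dclk1 and Stmn3 stayed within 2-fold of both. Stmn2 stood at 6.06 CPM (4.73 to 7.66) in the dpi 25 tumour, against 1163 CPM (1139.7 to 1187) in PDGFRa-GFP cortex and 627 CPM (603 to 651) in hGFAP-GFP cortex. Tubb3 stood at 26.6 CPM (23.7 to 29.7) in the dpi 25 tumour, against 812 CPM (792 to 831) and 402 CPM (383 to 421) in PDGFRa-GFP and hGFAP-GFP cortex. Dcx stood at 13.1 CPM (11.1 to 15.3) in the dpi 25 tumour, against 255 CPM (244 to 266) and 173 CPM (161 to 187) in PDGFRa-GFP and hGFAP-GFP cortex. These are 192-fold lower for Stmn2, 30.5-fold for Tubb3 and 19.5-fold for Dcx than in PDGFRa-GFP cortex.

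Stmn1 stood at 186 CPM in the dpi 25 tumour, against 1740.4 and 1210.2 CPM in PDGFRa-GFP and hGFAP-GFP cortex, and Stmn4 at 64.1 CPM, against 291 and 103 CPM. Stmn3, by contrast, stood at 213 CPM in the dpi 25 tumour, below the 342 CPM of PDGFRa-GFP and above the 147 CPM of hGFAP-GFP cortex. Map1b stood at 209.5 CPM in the dpi 25 tumour, against 458 and 339 CPM, and Map2 at 181 CPM, against 426 and 362 CPM. Dclk1 was the only 1 of the 9 that was not lower than in PDGFRa-GFP cortex, at 265 CPM in the dpi 25 tumour, against 198 CPM in PDGFRa-GFP and 366 CPM in hGFAP-GFP cortex.

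**Figure D1:**
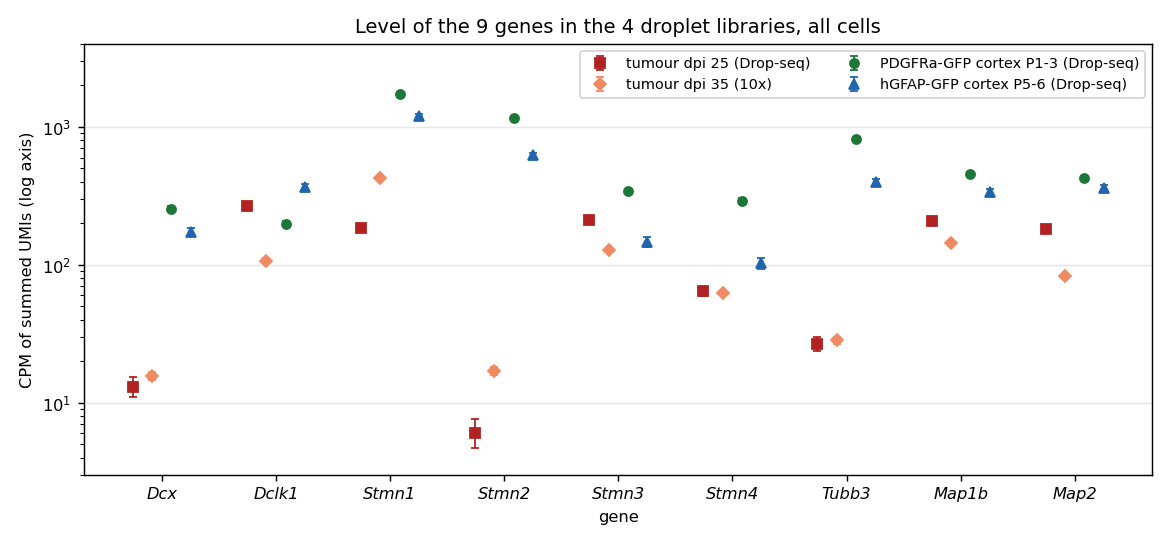
CPM of each of the 9 genes (x axis) in the 4 droplet libraries, on a log y axis, with exact Poisson 95% intervals. Dcx, Stmn2 and Tubb3 lie under 30 CPM in both tumours and above 170 CPM in both cortex libraries, while Dclk1 and Stmn3 of the dpi 25 tumour lie among the cortex values.

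Counted over the set, 7 of the 9 genes were at least 2-fold lower and 0 higher in the dpi 25 tumour than in PDGFRa-GFP cortex, where 16.6% and 16.2% of the 14162 genes tested were lower and higher. Against hGFAP-GFP cortex 4 were lower (Dcx, Stmn1, Stmn2 and Tubb3) and 0 higher, with 20.5% and 17.2% of all genes past those bounds. Map2 lay at a log2 ratio of -0.999 (-1.095 to -0.903) there, just inside the bound. The log2 ratios to PDGFRa-GFP cortex were -7.58 (-7.94 to -7.24) for Stmn2, -4.93 (-5.102 to -4.77) for Tubb3, -4.28 (-4.53 to -4.04) for Dcx and -3.22 (-3.29 to -3.16) for Stmn1. They were -2.18 (-2.31 to -2.06) for Stmn4, -1.24 (-1.31 to -1.16) for Map2 and -1.13 (-1.204 to -1.06) for Map1b. Stmn3, at -0.69 (-0.76 to -0.61), and Dclk1, at 0.42 (0.34 to 0.51), stayed within 2-fold. The neuronal-like cells of the cortex moved with this difference. With their clusters left out, Stmn2 lay at -6.48, Tubb3 at -4.13 and Dcx at -3.51, Stmn4 at -1.15, and Map1b, at -0.25, was no longer past 2-fold. This did not remove all cells with neuronal RNA. The 907 cycling cells of PDGFRa-GFP cortex stayed in, with 2830 CPM of summed interneuron markers and 975 CPM of Stmn2. The libraries also differ in the sort, so composition and RNA per cell cannot be told apart at this level.

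Other microtubule genes, taken from fixed lists, moved less evenly. Of 11 other tubulins 4 were lower and 1 higher in the dpi 25 tumour than in PDGFRa-GFP cortex. The 1 that was higher was Tubb6, a beta-tubulin common outside the nervous system, at 270.4 CPM in the tumour against 24.7 CPM in cortex, a log2 ratio of 3.45 (3.24 to 3.66). Tuba1c and Tubb2b lay at the low end with -1.998 and -1.992. Of 16 other neuronal microtubule proteins 8 were lower and 1 higher, Dpysl5, a collapsin response mediator, at the low end (0.953 CPM in the tumour against 44.1 CPM in cortex) and Map7d2 at the high end (133 against 42.6 CPM). Of 16 general microtubule proteins 1 was lower and 0 higher, and of 12 mitotic spindle proteins 0 passed either bound. The median log2 ratio was -2.18 over the 9 genes, -0.80 over the other tubulins, -0.99 over the other neuronal proteins, -0.14 over the general ones and 0.07 over the spindle list, against -0.01 over all genes.

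Between the cortex libraries the differences were smaller. Stmn4, Stmn3 and Tubb3 were at least 2-fold higher in PDGFRa-GFP at P1-3 than in hGFAP-GFP at P5-6, 3 of the 9, at log2 ratios of 1.504 (1.36 to 1.66), 1.22 (1.098 to 1.35) and 1.01 (0.94 to 1.09) in that order, where 4.85% of 13555 genes were higher and 12.7% lower. None of the 9 was at least 2-fold lower, and Dclk1 lay lowest at -0.89 (-0.99 to -0.79). Without the neuronal-like clusters Dcx also passed (1.04) and Dclk1 was counted as lower (-1.12), with the cycling cells and their interneuron markers still included. Of the 4 other lists, no gene was at least 2-fold higher and Tuba4a alone was lower.

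Within the PDGFRa-GFP library, the doublecortin family split between OPC-like and neuronal-like cells. Dcx stood at 103 CPM (91.1 to 116) in OPC-like cells, against 648 CPM (610.3 to 687) in neuronal-like cells. It was lower still in the other glial classes, at 40.7 CPM (14.9 to 88.6) in oligodendrocyte-like, 11.8 CPM (0.3 to 65.9) in astrocyte-like and 6.29 CPM (0.762 to 22.7) in choroid plexus- or ependymal-like cells, whose intervals overlap. OPC-like cells thus held Dcx RNA above the level of the class that should lack it, at both of their clusters (96.99 CPM in 774 cells and 116 CPM in 321). Cycling cells held 207 CPM (192 to 223) of Dcx in PDGFRa-GFP and 109 CPM (90.9 to 129) in hGFAP-GFP cortex. In hGFAP-GFP cortex neuronal-like cells were again the highest, at 650.2 CPM (593 to 711), against 126 CPM (93.7 to 166) in OPC-like and 29.3 CPM (12.7 to 57.8) in primitive OPC-like cells. Radial glia-like cells of that library held 0 Dcx UMIs, which makes Dcx at least 57.7-fold lower there than in neuronal-like cells, taking 3 UMIs as the floor.

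Dclk1 followed another order, with astrocyte-like cells at the top. It stood at 734 CPM (563 to 941) in astrocyte-like cells of the PDGFRa-GFP library, 152 CPM in OPC-like and 174 CPM in cycling cells, against 315 CPM (289.5 to 343) in neuronal-like cells. In the hGFAP-GFP library it stood at 902 CPM (824 to 984) in 118 astrocyte-like cells and 372 CPM (302 to 453) in radial glia-like cells, against 387 CPM (343 to 434) in neuronal-like cells. The astrocyte-like to neuronal-like log2 ratio was 1.22 (0.81 to 1.599) and 1.22 (1.01 to 1.44) in the PDGFRa-GFP and hGFAP-GFP libraries. It was the only 1 of the 9 genes at least 2-fold higher in astrocyte-like cells, with 8 lower in each library, where 22.4% and 19.8% of genes were higher and 16.5% and 18.3% lower. At the coarser clustering (resolution 0.5) the hGFAP-GFP ratio was 0.95, under 2-fold.

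**Figure D2:**
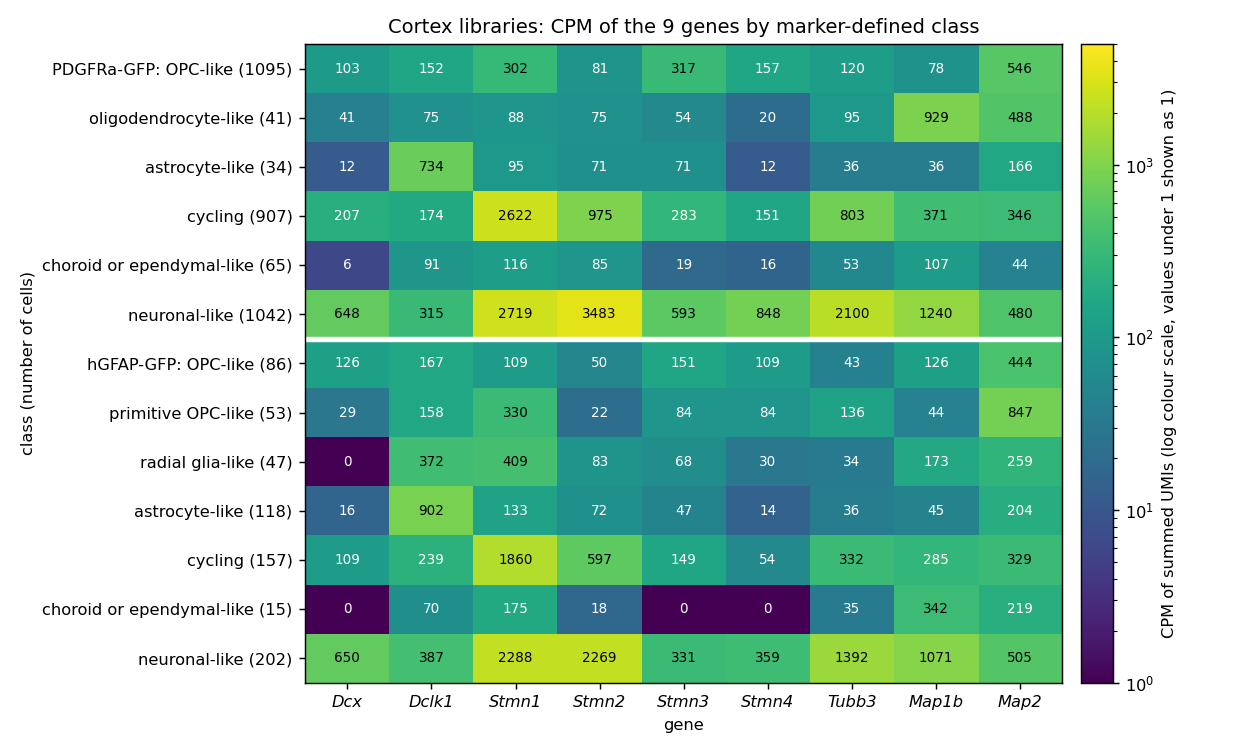
CPM of the 9 genes (columns) in each marker-defined class of the cortex libraries (rows, with the number of cells), on a log colour scale with the value printed in each cell. Stmn2 is at 22 to 83 CPM in the OPC, primitive OPC, oligodendrocyte, radial glia and astrocyte rows and at 2269 and 3483 CPM in the neuronal rows, whereas Map2 is above 440 in OPC, primitive OPC and neuronal rows.

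Among the stathmins, Stmn2 had the lowest OPC-like to neuronal-like ratio. It stood at 81.04 CPM (70.4 to 92.8) in OPC-like, 74.6 CPM (37.2 to 133) in oligodendrocyte-like, 71 CPM (26.1 to 155) in astrocyte-like and 84.9 CPM (55.98 to 124) in choroid plexus- or ependymal-like cells of the PDGFRa-GFP library, against 3483 CPM (3396 to 3572) in neuronal-like cells. The glial levels do not differ from that of the choroid class beyond counting error, and their source was not tested. Whether the choroid class itself lacks Stmn2 was not tested either. In hGFAP-GFP cortex Stmn2 stood at 22 CPM (8.07 to 47.9) in primitive OPC-like and 82.6 CPM (51.8 to 125) in radial glia-like cells. The OPC-like to neuronal-like log2 ratio was -5.43 (-5.63 to -5.23), and -5.49 (-6.21 to -4.86) in the hGFAP-GFP library. Within the neuronal-like cells of that library Stmn2 differed between clusters, at 3933 CPM (3728 to 4146) in the Gad1 cluster and 746 CPM (662 to 838) in the Neurod1 cluster.

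Stmn3 was shared by both lineages. It stood at 317 CPM (295 to 339) in OPC-like cells of PDGFRa-GFP cortex, against 593 CPM (557 to 630.1) in neuronal-like cells, a log2 ratio of -0.904 (-1.04 to -0.77). It stood lower, at 54.3 CPM in oligodendrocyte-like, 71 CPM in astrocyte-like and 18.9 CPM in choroid plexus- or ependymal-like cells. In hGFAP-GFP cortex it stood at 151 CPM in OPC-like cells and 46.9 CPM in astrocyte-like cells, against 331 CPM in neuronal-like cells. Stmn4 lay between, at 157 CPM (142 to 173) in OPC-like and 15.7 CPM (5.11 to 36.7) in choroid plexus- or ependymal-like cells of PDGFRa-GFP cortex, against 848 CPM (806 to 893) in neuronal-like cells. In hGFAP-GFP cortex Stmn4 stood at 109 CPM in OPC-like and 14.4 CPM in astrocyte-like cells, against 359 CPM in neuronal-like cells.

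Stmn1 was high in cycling as well as in neuronal-like cells. In PDGFRa-GFP cortex it stood at 302 CPM (281 to 324) in OPC-like and 2622 CPM (2567 to 2677) in cycling cells, against 2719 CPM (2642 to 2798) in neuronal-like cells. In hGFAP-GFP cortex it stood at 109 CPM (78.5 to 146) in OPC-like and 1859.5 CPM (1783 to 1938) in cycling cells, against 2288 CPM (2179.8 to 2400.3) in neuronal-like cells. The cycling class was mixed. Its 5 PDGFRa-GFP clusters ranged in summed interneuron markers from 173 to 4381 CPM and in summed OPC markers from 569.8 to 5742 CPM. Stmn1 stood at 907 CPM in the cluster lowest in interneuron markers (44 cells) and 3723 CPM in the highest (306 cells). Stmn2 ran from 98.2 to 1676 CPM, Tubb3 from 80.9 to 1126 CPM and Dcx from 69.3 to 307 CPM between the same clusters.

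When cycling cells with any UMI of the interneuron or excitatory lists were set aside, 102 of 907 remained in PDGFRa-GFP cortex, and Stmn1 lay at a log2 ratio of -1.399 to neuronal-like cells, in place of -0.05. Stmn2 lay at -5.700 in place of -1.84, and Tubb3 at -5.49 in place of -1.39. With all cycling cells, 6 of the 9 genes were at least 2-fold lower than in neuronal-like cells in each cortex library, where 9.97% of PDGFRa-GFP and 14.2% of hGFAP-GFP genes were lower. With the 102 cells, 8 were, and the share of all genes was not computed for them. These cells were picked for lacking neuronal marker UMIs, and their median was 2279 UMIs, against 3180 in all 907. The spindle list was higher in 11 of 12 genes in both libraries, and it shares the cell-cycle basis of the class name.

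Tubb3 was high in neuronal-like cells and far lower in the glial classes. It stood at 120.2 CPM (107 to 134) in OPC-like, 94.9 CPM (51.9 to 159) in oligodendrocyte-like, 35.5 CPM (7.32 to 104) in astrocyte-like and 53.5 CPM (31.2 to 85.6) in choroid plexus- or ependymal-like cells of PDGFRa-GFP cortex, against 2099.8 CPM (2032 to 2169) in neuronal-like cells. The OPC-like clusters differed, with 153 CPM in the one led by Dll3, Olig1 and Ppp1r14b and 49.03 CPM in the one led by Emid1, Rasl11a and Serpine2. In hGFAP-GFP cortex it stood at 136 CPM (95.5 to 187) in primitive OPC-like and 42.9 CPM (24.99 to 68.7) in OPC-like cells, against 1392 CPM (1308 to 1480.1) in neuronal-like cells. In both libraries the higher progenitor value was thus in the cells led by Dll3, Olig1 and Ppp1r14b.

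The structural proteins Map1b and Map2 parted. Map1b stood at 77.9 CPM (67.5 to 89.5) in OPC-like and 929 CPM (780.0 to 1098) in oligodendrocyte-like cells, against 1239.7 CPM (1188 to 1293) in neuronal-like cells of PDGFRa-GFP cortex. It was thus low in progenitors and within 2-fold of the neuronal level in the 41 oligodendrocyte-like cells, at a log2 ratio of -0.42 (-0.68 to -0.17). In hGFAP-GFP cortex it stood at 126 CPM in OPC-like and 44 CPM in primitive OPC-like cells, against 1071 CPM in neuronal-like cells. Map2 stood at 546 CPM (517 to 575) in OPC-like and 488 CPM (382 to 615) in oligodendrocyte-like cells, against 479.8 CPM (448 to 514) in neuronal-like cells. It was lower at 166 CPM (90.6 to 278) in astrocyte-like and 44.05 CPM (24.1 to 73.9) in choroid plexus- or ependymal-like cells. In hGFAP-GFP cortex its highest class was the primitive OPC-like one, with 847 CPM (741 to 963), and OPC-like cells held 444 CPM (381 to 515), against 505 CPM (455 to 559.6) in neuronal-like cells.

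Set over the 9 genes, OPC-like cells were at least 2-fold lower than neuronal-like cells in 7 in PDGFRa-GFP cortex and in 8 in hGFAP-GFP cortex, where 8.99% and 13.8% of genes were lower, and 0 were higher, where 20.5% and 14.4% were. The log2 ratios in PDGFRa-GFP cortex ran from -5.43 (-5.63 to -5.23) for Stmn2 through -4.13 (-4.299 to -3.96) for Tubb3, -3.99 (-4.21 to -3.78) for Map1b, -3.17 (-3.28 to -3.06) for Stmn1, -2.65 (-2.85 to -2.46) for Dcx, -2.44 (-2.600 to -2.28) for Stmn4 and -1.05 (-1.24 to -0.86) for Dclk1 to -0.904 (-1.04 to -0.77) for Stmn3. Map2 alone lay near 0, at 0.19 (0.06 to 0.31) in PDGFRa-GFP and -0.19 (-0.45 to 0.08) in hGFAP-GFP cortex, and its sign turned to -0.11 in PDGFRa-GFP cortex at the finer clustering. In the 53 primitive OPC-like cells Map2 was higher than in neuronal-like cells, at 0.74 (0.501 to 0.99), while the other 8 genes lay between -6.69 and -1.29. Of all genes 7.97% were at least 2-fold higher in that class.

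Some interneuron RNA was present in PDGFRa-GFP OPC-like cells, 285 CPM over the list with a UMI of 14 of 14 markers, against 5949 CPM in neuronal-like cells. In the 678 of 1095 OPC-like cells with no UMI of the interneuron or excitatory lists, 7 genes were still lower, with Map2 at 0.15, Stmn3 at -0.92, Stmn2 at -6.11 and Dcx at -2.83. The share of all genes was not computed for these 678 cells. They were picked for lacking neuronal marker UMIs, and their median was 1928 UMIs, against 2095 in all OPC-like cells. Of the fixed lists, 8 of 10 other tubulins were lower in OPC-like cells, Tubb5 lowest (858 CPM in OPC-like against 3819 CPM in neuronal-like cells), and 7 of 15 other neuronal microtubule proteins were lower and 2 higher. The higher ones were Map7d2 (84.9 against 24.9 CPM) and Map6 (22.9 against 11 CPM), a microtubule-stabilising protein. Of 16 general proteins 1 was lower and 1 higher, and 0 of 12 spindle proteins passed.

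In oligodendrocyte-like cells of PDGFRa-GFP cortex 7 of the 9 genes were lower than in neuronal-like cells and 0 higher, where 19.3% and 17.7% of genes were. Map1b and Map2 were the others, Map2 at 0.03 (-0.34 to 0.37). Stmn4, at 3 UMIs in all, gave the low end with Stmn2. Tubb4a, a beta-tubulin known from oligodendrocytes, stood at 549 CPM in oligodendrocyte-like against 52.1 CPM in neuronal-like cells. Radial glia-like cells of hGFAP-GFP cortex had 7 genes lower and 0 higher, where 23.1% and 12.5% of genes were, with Dclk1 at -0.06 (-0.401 to 0.28) and Map2 at -0.96 (-1.36 to -0.59) within 2-fold.

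Shares of cells with a UMI were taken after thinning each cell to 1000 UMIs, which left out 187 OPC-like and 215 neuronal-like cells in PDGFRa-GFP cortex. Map2 was detected in 37% (33.9% to 40.2%) of OPC-like cells, against 37.7% (34.4% to 41.1%) of neuronal-like cells and 3.17% (0.387% to 11%) of choroid plexus- or ependymal-like cells (exact Clopper-Pearson intervals). Unthinned, these were 60.3%, 47.98% and 18.5%. Stmn2 was detected in 7.05% (5.47% to 8.91%) of OPC-like cells, against 89.96% (87.7% to 91.9%) of neuronal-like cells, and in 7.94% (2.63% to 17.6%) of choroid plexus- or ependymal-like cells. The OPC-like share thus lay within the interval of the choroid plexus- or ependymal-like one. Unthinned, Stmn2 was in 12.1%, 92.03% and 15.4%. Dcx was detected in 10.1% (8.25% to 12.3%) of OPC-like cells, against 45.5% (42.03% to 48.9%) of neuronal-like cells and 1.59% of choroid plexus- or ependymal-like cells, and unthinned in 20%, 58.7% and 3.08%. The thinned cells had a median of 2490.5, 1685 and 4750.0 UMIs before thinning.

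In hGFAP-GFP cortex Map2 was detected in 45.3% (31.6% to 59.6%) of primitive OPC-like and 39.5% (29.2% to 50.7%) of OPC-like cells, against 35.6% of neuronal-like cells. Dcx was detected in 15.1% of OPC-like cells and in 0 of 53 primitive OPC-like cells (up to 5.66% at that depth, taking 3 cells as the floor), against 50.5% of neuronal-like cells. Unthinned, these were 32.6%, 9.43% and 82.2%. Dclk1 was detected in 58.5% (49.04% to 67.5%) of astrocyte-like cells, against 28.2% of neuronal-like cells. Counted per cell at 1000 UMIs, the median number of the 9 genes was 1 in OPC-like, 3 in cycling, 0 in choroid plexus- or ependymal-like and 5 in neuronal-like cells of PDGFRa-GFP cortex. Dclk1, Stmn3 or Map2 without Dcx, Stmn2 or Tubb3, a grouping chosen after the levels were seen, marked 44.2% of OPC-like cells (401 of 908), against 0.846% of neuronal-like and 4.76% of choroid plexus- or ependymal-like cells. It was not particular to OPC-like cells, since it marked 53.6% of astrocyte-like, 37.8% of oligodendrocyte-like and 16.2% of cycling cells of that library. In hGFAP-GFP cortex it marked 59.3% of astrocyte-like and 46.5% of OPC-like cells.

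**Figure D3:**
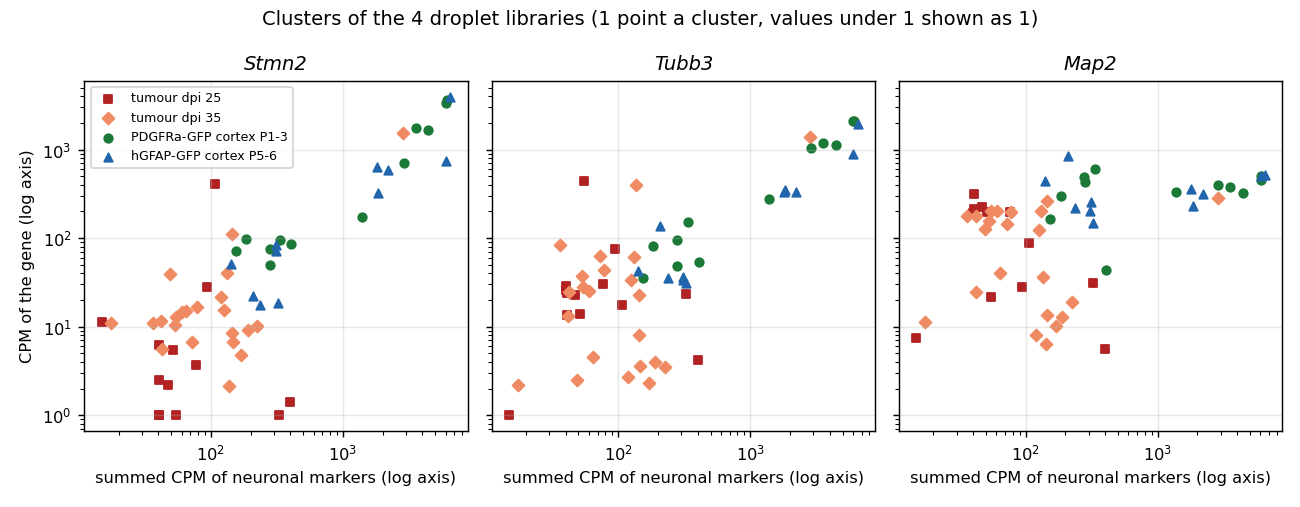
CPM of Stmn2, Tubb3 and Map2 (y axes, log) in every cluster of the 4 droplet libraries against the summed CPM of the interneuron and excitatory marker lists (x axis, log), 1 point a cluster. Stmn2 and Tubb3 are high where these markers are high, with exceptions at left (the oligodendrocyte-like clusters with Tubb3 near 400 CPM and a 15-cell dpi 25 cluster with Stmn2 at 409 CPM), while Map2 is above 100 CPM at both ends.

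Each tumour was described by class beside its own microglia- or macrophage-like cells. In the dpi 25 library 2244 cells were cycling, 339 microglia- or macrophage-like, 84 endothelial-like, 64 oligodendrocyte-like and 42 mural- or fibroblast-like, and 2182 were unnamed, among them a cluster of 1763 led by Cdkn2b, Ccnd2 and Sox9. No cluster was neuronal-like. The dpi 35 library held 1483 OPC-like, 813 cycling, 310 oligodendrocyte-like, 99 choroid plexus- or ependymal-like, 26 neuronal-like, 16 astrocyte-like and 1474 microglia- or macrophage-like cells, with vascular classes and 1563 unnamed. Another chemistry was used, so its values stand beside those of dpi 25 with no ratio. Some dpi 35 classes were mixed. The OPC-like class took in 125 cells with 18818 CPM of summed microglia or macrophage markers, and the cycling class 209 cells with 38494 CPM. The neuronal-like cells also held 4706 CPM of summed cycling markers, against 6199 CPM in the cycling class.

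Dcx was low in tumour cells and yet above the myeloid level. It stood at 11.4 CPM (8.79 to 14.51) in cycling and 17.9 CPM (13.8 to 22.9) in the 1763 unnamed cells of the dpi 25 library, against 2.37 CPM (0.287 to 8.56) in microglia- or macrophage-like cells. In the dpi 35 library it stood at 42.5 CPM (38.5 to 46.8) in OPC-like, 19.7 CPM (16.7 to 23.1) in cycling and 316 CPM (234 to 418) in neuronal-like cells, against 1.84 CPM (1.15 to 2.78) in microglia- or macrophage-like cells. The 3 OPC-like clusters gave 44.02, 46.4 and 26.2 CPM. The OPC-like cluster of 125 cells held 18818 CPM of summed microglia or macrophage markers, against 772 and 840 CPM in those of 850 and 508. The cycling class likewise took in 209 cells with 38494 CPM of these markers. Dclk1 stood at 383 CPM (363 to 404) in the 1763 unnamed and 237 CPM (225 to 250.3) in cycling cells at dpi 25, against 21.3 CPM (12.6 to 33.7) in microglia- or macrophage-like cells. At dpi 35 it stood at 294 CPM (283 to 305) in OPC-like and 688 CPM (534 to 872) in astrocyte-like cells, against 17.1 CPM (14.8 to 19.6) in microglia- or macrophage-like cells. The astrocyte-like class held the highest Dclk1 of its library, here over 16 cells.

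Stmn2 was at or near the myeloid level in most tumour cells. It stood at 2.63 CPM (1.47 to 4.33) in cycling cells at dpi 25, against 1.18 CPM (0.03 to 6.601) in microglia- or macrophage-like cells. Of the library's 70 Stmn2 UMIs, 23 came from an unnamed cluster of 15 cells led by Cd24a, Aqp4 and Nupr1. That cluster held 9791 CPM of summed choroid plexus or ependymal markers and 8636 CPM of summed astrocyte markers. At dpi 35 Stmn2 stood at 13.7 CPM (11.5 to 16.3) in OPC-like and 1521 CPM (1333 to 1728) in neuronal-like cells, against 7.59 CPM (6.11 to 9.32) in microglia- or macrophage-like cells. Choroid plexus- or ependymal-like cells at dpi 35 held 38.9 CPM (26.4 to 55.2) of Stmn2, above the OPC-like level. Tubb3 stood at 24.5 CPM (20.6 to 28.9) in cycling cells at dpi 25, against 7.11 CPM (2.61 to 15.5) in microglia- or macrophage-like cells, and at 27.7 CPM (24.5 to 31.2) in OPC-like and 1379.6 CPM (1201 to 1577) in neuronal-like cells at dpi 35, against 3.59 CPM (2.596 to 4.83) in microglia- or macrophage-like cells. The 42 mural- or fibroblast-like cells at dpi 25 lay above the cycling cells for both genes. They held 75.3 CPM (32.5 to 148) of Tubb3 from 8 UMIs and 28.2 CPM (5.82 to 82.5) of Stmn2 from 3 UMIs. At dpi 35 Tubb3 stood at 13.3 CPM (5.36 to 27.5) in mural- or fibroblast-like cells. Stmn3 stood at 225 CPM (213 to 238) in cycling cells at dpi 25, against 16.6 CPM (9.07 to 27.8) in microglia- or macrophage-like cells, and at 336 CPM (325 to 348) in OPC-like cells at dpi 35, against 22.4 CPM (19.8 to 25.3) in microglia- or macrophage-like cells.

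The oligodendrocyte-like cells of the tumours split the set. Cells whose leading genes included Apod and Mal, genes of myelinating oligodendrocytes (37 at dpi 25 and 98 at dpi 35), held Stmn4 at 1572 CPM (1326 to 1851) and 1544 CPM (1465 to 1625), and Tubb3 at 437 CPM (312 to 595) and 397 CPM (358 to 439), at dpi 25 and dpi 35. Cells led by Enpp6, Bmp4 and Sirt2, genes of newly committed oligodendrocytes (27 and 212 cells), held instead Map1b at 1032 CPM (813 to 1292) and 1483 CPM (1429.5 to 1539), and Map2 at 312 CPM (198 to 469) and 178 CPM (159.8 to 198), at dpi 25 and dpi 35. Stmn4 stood at 67.9 and 67.3 CPM in these committed cells, and Map2 at 21.8 and 36.2 CPM in the myelinating ones. Both time points and both chemistries showed this split. Stmn1 was at 218 CPM (133 to 337) at dpi 25 and 1770.1 CPM (1686 to 1857) at dpi 35 in the myelinating cells, and the chemistries differ. Microglia- or macrophage-like cells held 4.74 and 4.92 CPM of Stmn4 at dpi 25 and dpi 35.

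Stmn1 was high in cycling cells of more than 1 lineage at dpi 35. It stood at 1167 CPM (1136 to 1199.5) and 979 CPM (916 to 1046) in cycling clusters of 484 and 120 cells and at 798 CPM (763 to 833) in a cycling cluster of 209 cells with 38494 CPM of summed microglia or macrophage markers, whose Map2 stood at 6.44 CPM. Those markers summed to 729.6 and 765 CPM in the other cycling clusters. It stood at 485 CPM (471 to 499) in OPC-like and 198 CPM (191 to 207) in microglia- or macrophage-like cells that were not in cycling clusters. The 26 neuronal-like cells held more Stmn1, at 4861 CPM (4520 to 5220). Stmn1 also stood higher in the myelinating cells described above than in these cycling clusters. At dpi 25 it stood at 244 CPM (231 to 257) in cycling and 161 CPM (148 to 175) in the 1763 unnamed cells. Map1b stood at 189 CPM (178 to 200.2) in cycling cells at dpi 25, against 18.96 CPM (10.8 to 30.8) in microglia- or macrophage-like cells, and Map2 at 195 CPM (184 to 207), against 9.48 CPM (4.09 to 18.7) in the microglia- or macrophage-like cells. At dpi 35 Map2 stood at 191 CPM (182 to 199.6) in OPC-like cells, against 14.8 CPM (12.7 to 17.2) in microglia- or macrophage-like cells.

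**Figure D4:**
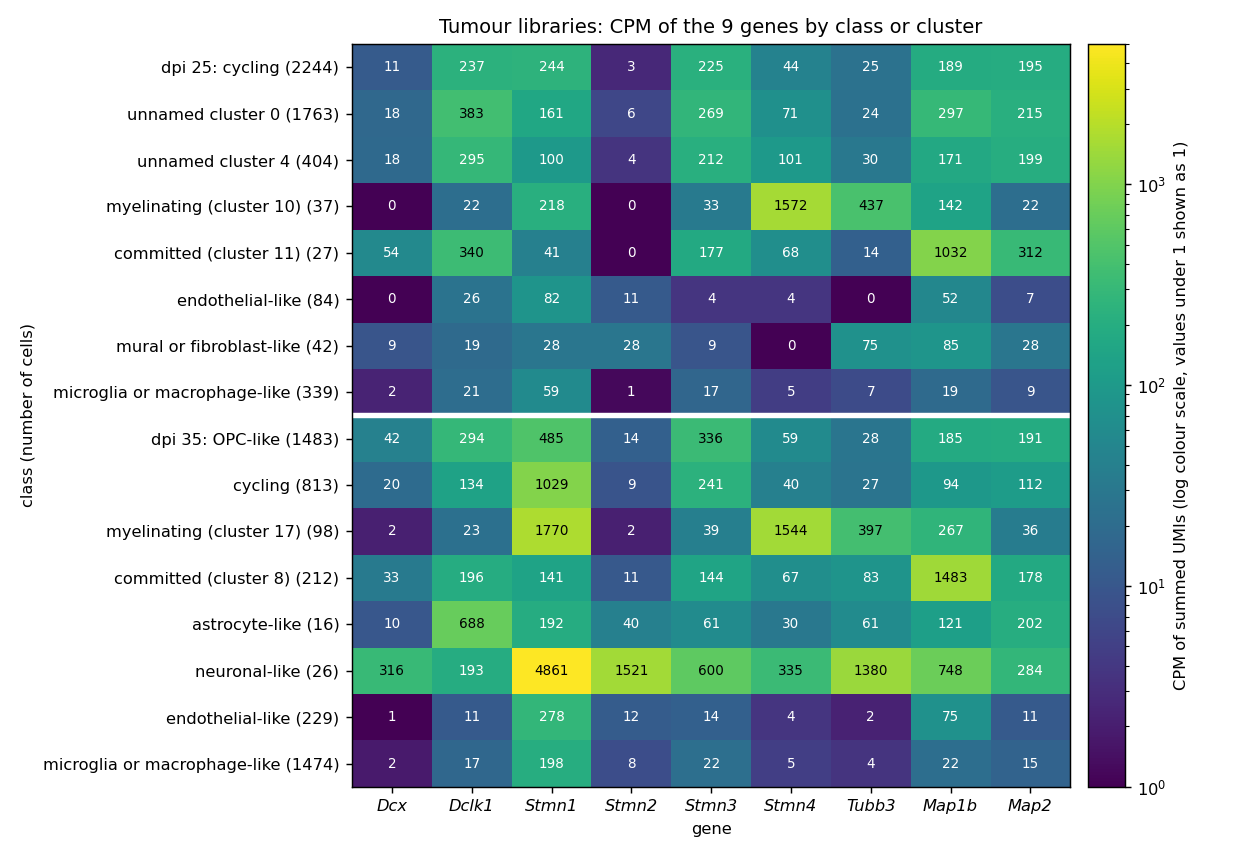
CPM of the 9 genes (columns) in classes or single clusters of the tumour libraries (rows, with the number of cells), on a log colour scale with the value printed in each cell. Stmn4 stands at 1572 and 1544 CPM in the myelinating rows and Map1b at 1032 and 1483 CPM in the committed rows, while the microglia- or macrophage-like rows are low across the set except for Stmn1 at dpi 35.

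Over the set, 8 of the 8 genes with enough UMIs were at least 2-fold higher in cycling than in microglia- or macrophage-like cells at dpi 25, where 33.6% of genes were, and 0 lower, where 15.4% were. In oligodendrocyte-like cells it was 7 of 7, where 19.5% were higher and 23.1% lower. At dpi 35 it was 8 of 9 in OPC-like, cycling and oligodendrocyte-like cells, where 38.5%, 33.1% and 32.6% of genes were higher, and 9 of 9 in the 26 neuronal-like cells, where 46.3% were. Stmn2 was the exception at 0.86 (0.46 to 1.26) in OPC-like, 0.29 (-0.17 to 0.75) in cycling and 0.08 (-0.65 to 0.75) in oligodendrocyte-like cells. The OPC-like and cycling classes at dpi 35 included the cells with microglia or macrophage markers given above, and these were not set aside. In the neuronal-like cells, which held 4706 CPM of summed cycling markers, 11 of 11 spindle genes were also higher. The largest ratio of a class was 4.36 (3.38 to 5.58) for Map2 in cycling and 7.57 (6.19 to 9.47) for Stmn4 in oligodendrocyte-like cells at dpi 25. At dpi 35 it was 4.53 (3.92 to 5.22) for Dcx in OPC-like, 6.81 (6.43 to 7.21) for Stmn4 in oligodendrocyte-like and 8.59 (8.11 to 9.09) for Tubb3 in neuronal-like cells.

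At 1000 UMIs a cell Map2 was detected in 17.96% (16.4% to 19.6%) of cycling and 0.295% of microglia- or macrophage-like cells at dpi 25 (median depths 2278 and 2157 UMIs), and in 16.99% (15.1% to 19%) of OPC-like and 1.49% of microglia- or macrophage-like cells at dpi 35 (5611 and 6926 UMIs). Unthinned, these were 36.5%, 2.36%, 66.1% and 10.2%. Dcx was detected in 1.11% of cycling cells and 0 of 339 microglia- or macrophage-like cells at dpi 25 (2.897% and 0.59% unthinned). The count of 0 allows up to 0.885% at that depth, taking 3 cells as the floor. At dpi 35 Dcx was detected in 4.18% (3.22% to 5.33%) of OPC-like and 0.0678% of microglia- or macrophage-like cells. Stmn2 was detected in 0.178% of cycling and 0.295% of microglia- or macrophage-like cells at dpi 25, and in 1.35% and 0.95% of OPC-like and microglia- or macrophage-like cells at dpi 35.

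The C1 cells, sequenced deeper per cell and given as TPM (transcript abundance, a per-length scale), were divided by the markers of each cell. Cells with at least 3 OPC markers at 10 TPM and fewer than 3 interneuron or excitatory markers numbered 40 of 53 at P6 and 18 of 60 at P3 in the PDGFRa-GFP sets. Cells with astrocyte markers were not set aside. At least 3 of those were at 10 TPM in 28 of the 42 P6 and 9 of the 20 P3 cells without neuronal markers. Some OPC-marker cells therefore held both kinds. Map2 averaged 354 ± 452 TPM in the P6 ones and 286 ± 312 TPM in the P3 ones (SD over cells), with 39 of 40 and 17 of 18 cells at 10 TPM or more. In cells with neuronal and no OPC markers it averaged 372 ± 359.8 TPM over 7 at P6 and 184 ± 215 TPM over 34 at P3, so both kinds of cell overlapped at both ages. Stmn2 averaged 0.404 and 0.0707 TPM in the OPC-marker cells of P6 and P3, with 0 of 40 and 0 of 18 at 10 TPM, against 860.3 ± 1002 TPM and 28 of 34 in the P3 neuronal-marker cells. Tubb3 averaged 43.3 ± 139 TPM in P6 OPC-marker cells and 3629.8 ± 2608 TPM in P3 neuronal-marker cells, where 34 of 34 cells reached 10 TPM. Dcx reached 10 TPM in 35% of P6 OPC-marker cells, at a mean of 74.05 ± 226 TPM.

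**Figure D5:**
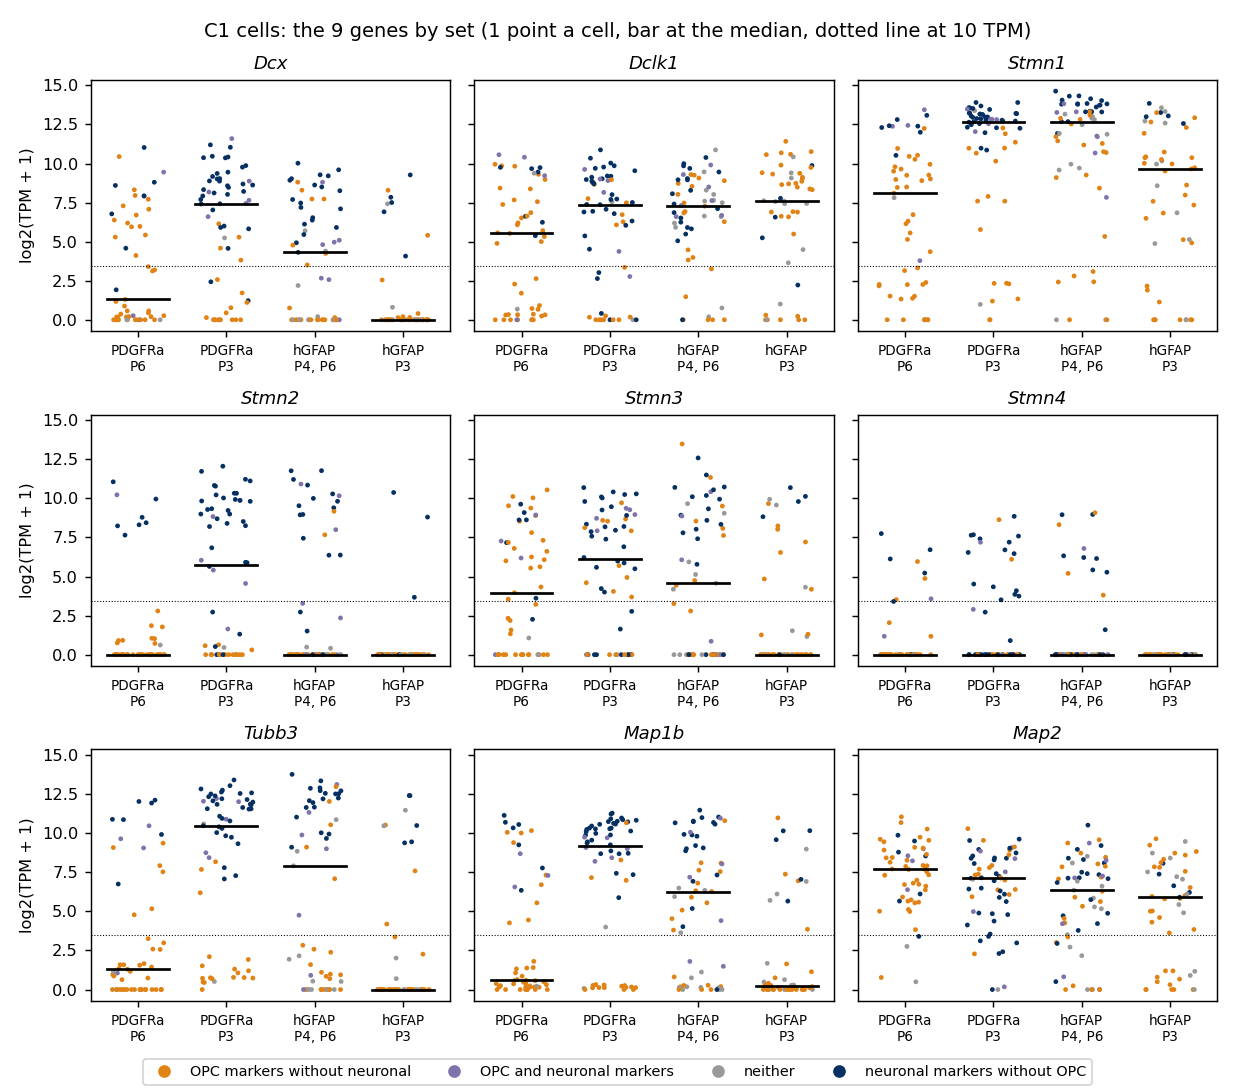
Level of each of the 9 genes in the C1 cells, as log2(TPM + 1) (y axis), by set (x axis), 1 point a cell coloured by the OPC and neuronal markers it holds, with the set median as a bar and 10 TPM as a dotted line. Among PDGFRa-GFP cells with OPC and no neuronal markers, Stmn2 is above the line in 0 of 40 at P6 and 0 of 18 at P3, and Map2 in 39 of 40 and 17 of 18.

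The hGFAP-GFP sets gave 21 OPC-marker cells without neuronal markers at P4 and P6 and 32 at P3. Astrocyte markers were held by 22 of the 34 cells without neuronal markers at P4 and P6 and by 38 of the 44 at P3. The OPC-marker cells of these sets thus overlap astrocyte-marker cells too. Map2 averaged 166 ± 221 TPM and 137 ± 204 TPM in them, with 71.4% and 65.6% at 10 TPM. Stmn2 reached 10 TPM in 2 of 21 of the P4 and P6 cells and was listed at 0 in all 32 P3 cells. The mean of Stmn1 was higher in cells with cycling markers in each of the 4 sets once neuronal-marker cells were left out, with a wide spread over cells. It averaged 1364 ± 1806 TPM in 6 cycling-marker cells of PDGFRa-GFP P6 against 292 ± 462 TPM in 36 without, and 3626 ± 3479.9 TPM in 7 against 325 ± 759.7 TPM in 13 at P3. In the hGFAP-GFP sets the means were 4775 ± 3512 TPM in 16 against 1699 ± 2373 TPM in 18 at P4 and P6, and 4164 ± 3537 TPM in 15 against 731 ± 2251 TPM in 29 at P3. The median number of the 9 genes at 10 TPM was 3, 3.5, 4 and 3 in the OPC-marker cells (sets in the order of the plot: PDGFRa-GFP P6, then P3, and hGFAP-GFP P4 and P6, then P3), and 8 in neuronal-marker cells of each set.

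Means over whole C1 sets moved in opposite ways between ages for 7 of the genes. In PDGFRa-GFP, 6 of the 9 genes had at least 2-fold lower mean TPM at P6 than at P3 and 0 higher, where 20.5% of 15737 genes were lower and 33.9% higher. Stmn1 averaged 1472 ± 2542 TPM at P6 and 5862 ± 4276 TPM at P3, Tubb3 413 ± 1033 TPM and 2356 ± 2616 TPM, and Stmn2 112 ± 363 TPM and 513 ± 859.5 TPM. The log2 ratios, on means plus 1 TPM, were -1.99, -2.51 and -2.18, with Dcx at -1.55, Map1b at -1.67, Stmn4 at -1.83, Stmn3 at -0.63, Dclk1 at -0.23 and Map2 at 0.64. All genes had a median of 0.32. In hGFAP-GFP, 7 of the 9 were higher in the later set (P4 and P6) and 0 lower, where 25.7% of 12564 genes were higher and 26.1% lower. Stmn2 lay at 3.22, Tubb3 at 2.42, Stmn3 at 2.04, Dcx at 1.898, Map1b at 1.79 and Stmn1 at 1.41, Map2 at 0.25 and Dclk1 at -0.598. Stmn4, the last of the 7, averaged 38.01 TPM at P4 and P6 and was listed at 0 in all 49 P3 cells.

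The share of cells with neuronal markers moved with both differences. For PDGFRa-GFP it was 20.8% (11 of 53) at P6, against 66.7% (40 of 60) at P3. For hGFAP-GFP it was 44.3% (27 of 61) in the later set (P4 and P6), against 10.2% (5 of 49) at P3. Without these cells, in a comparison added after the data were seen, 42 P6 and 20 P3 cells of PDGFRa-GFP remained, with 1 of the 9 genes higher (Dcx) and 3 lower (Stmn1, Stmn4 and Tubb3), where 40.3% of 15108 genes were higher and 20.5% lower. Single cells carried several of these values. Dcx lay at 2.77, and at 1.904 without its highest cell, while Tubb3 lay at -1.35 and turned to 0.42. Stmn4 lay at -2.799, and at -0.39 without its highest cell, and Map1b at -0.13, and at 1.67. Stmn1 lay at -1.73, and at -1.16 without its highest cell, Map2 at 0.35 and 0.15, and Stmn2 at 0.37 and 0.22. In hGFAP-GFP 34 cells of the later set and 44 P3 cells remained, with 5 genes higher (Dcx, Stmn2, Stmn3, Stmn4 and Tubb3) and 1 lower (Dclk1), where 26.3% of 12242 genes were higher and 29.7% lower. Stmn2 and Stmn4 averaged 22.9 and 26.7 TPM in the later set and were listed at 0 in every P3 cell left. Stmn3 lay at 2.68, and at 1.14 without its highest cell, Dcx at 1.602 and 1.06, and Dclk1 at -1.001 and -0.83. Tubb3 lay at 1.88, and without its highest cell it averaged 272 TPM in the later set and 136 TPM at P3, at the 2-fold bound. Over the whole sets, leaving out the highest cell of each gene left the counts at 6 lower for PDGFRa-GFP and 7 higher for hGFAP-GFP. The animals behind the cells are not named, so a set counts as 1 sample.

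Across the 24 droplet classes of at least 30 cells, genes whose levels ran most like Stmn2 included Dlx6os1 (0.97) and Gad2 (0.96), by Pearson correlation of log2(CPM + 10) over 11426 candidate genes. Those most like Dcx were Nol4 (0.92), Celf4 (0.92), Nrxn3 (0.91), those most like Tubb3 Rcor2 (0.91), Mpped2 (0.87), Parm1 (0.87) and those most like Map2 Bex4 (0.94), Lhfpl4 (0.93), Soga3 (0.93). For Dclk1 they were Gm3764 (0.92), Fam171b (0.91), Amer2 (0.91), for Stmn1 Hic2 (0.88), Ube2ql1 (0.87), Snrpc (0.84), for Stmn3 Hist3h2ba (0.91), Tagln3 (0.91), Ttc9b (0.90), for Stmn4 Zfp536 (0.87), Hist3h2ba (0.86), Elavl3 (0.86) and for Map1b Cyth2 (0.87), Tuba1a (0.86), Dixdc1 (0.85). Among the 9 genes, Dcx and Tubb3 were closest (0.87), followed by Dcx with Stmn2 (0.81), and Dclk1 with Map1b farthest (0.31). Classes of 1 library share its cells' preparation and depth, and these correlations are a description over 24 classes.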

How the data were processed

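Single-cell RNA was measured in 4 droplet libraries and 2 C1 tables of mouse cortex and tumour cells, with 1 pooled ATAC-seq interval list. The authors deposited the Drop-seq tables as signal per cell, scaled values from which whole UMIs were recovered for 100% of nonzero entries, after alignment by STAR (named in the submitters' processing notes). The deposited 10x matrix holds UMI counts from Cell Ranger, and the authors' C1 tables hold TPM from RSEM, each per the submitters' processing notes. The deposited interval list gives a fold enrichment and a −log10 q-value per summit from MACS2 2.12 after Bowtie2, per the submitters' processing notes, which name the builds mm10 and rn5. The mm10 build was taken for the list because its intervals fall on GRCm38.p6 start sites.

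The 9 genes and all lists were chosen with earlier results of these data known. After a minimum of 200 genes a cell, UMIs were scaled to 10000, log-transformed and clustered without the 9 genes (scanpy 1.11.5; 2000 variable genes, 30 principal components, 15 neighbours, leidenalg 0.10.2 at resolution 1). A class name needed 3 markers among the 50 leading genes of a cluster. A non-neuronal name was withdrawn where 3 genes of a list of synaptic and dendritic RNAs, added after the data were seen, were among them, which left 272 cells at dpi 35 unnamed. No doublet caller was run. CPM came from summed UMIs with exact Poisson intervals, and ratios carry exact conditional 95% intervals (scipy 1.17.1). C1 ratios used mean TPM + 1 over genes with a mean of at least 1 TPM in either set. The fixed lists are given by their counts, and the 2 highest and 2 lowest genes of a list could be named. The ratio step was checked on simulated counts. No p is given: each group is 1 library, or cells of unnamed animals. Labels give totals of 2000 hGFAP-GFP and 6796 dpi 25 cells, and 815 and 4955 were analysed here. Alternatives covered thinning to 1000 UMIs, equal cell weights, filters, clustering resolutions of 0.5 and 2, the 9 genes kept in the clustering, cells without neuronal markers, the highest C1 cell left out, and pseudocounts.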

Additional observations from a re-analysis of the deposited data

Results flagged for a closer look

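Of the 9 genes, 7 had C1 means that moved in opposite ways between ages in the PDGFRa-GFP and hGFAP-GFP sets. For Stmn4 no difference is given, since it was listed at 0 in every hGFAP-GFP cell at P3. For the other 6, the later over P3 log2 ratio of PDGFRa-GFP minus that of hGFAP-GFP was -3.44 for Dcx (-1.55 and 1.90), -3.41 for Stmn1 (-1.99 and 1.41), -5.40 for Stmn2 (-2.18 and 3.22), -2.67 for Stmn3 (-0.63 and 2.04), -4.92 for Tubb3 (-2.51 and 2.42) and -3.47 for Map1b (-1.67 and 1.79). The difference was not tested, since each set is 1 sample and the tables were normalized separately. Neuronal-marker cells made up 20.8% of the P6 and 66.7% of the P3 set of PDGFRa-GFP, and 44.3% of the later and 10.2% of the P3 set of hGFAP-GFP, and their part in the difference was not tested beyond the values without these cells.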

How the results depend on the processing

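Counts of genes past 2-fold and shares of cells were recomputed under each alternative. 204 of these values stayed within 1.5 times of the reported ones and 10 moved, and of the single-gene values 656 stayed, 246 moved and 7 changed sign. Without neuronal-like clusters, 1 gene (Dclk1) was lower in PDGFRa-GFP than in hGFAP-GFP cortex. At resolution 0.5, 0 genes were higher in astrocyte-like than in neuronal-like cells of hGFAP-GFP cortex, and no primitive OPC-like or radial glia-like class was found. Thinned to 1000 UMIs, 2 genes had enough UMIs to be called higher in oligodendrocyte-like than in microglia- or macrophage-like cells at dpi 25, and Stmn2 in cycling cells there lay at -0.73. Without thinning, 6 genes reached 10% of astrocyte-like cells in hGFAP-GFP cortex and 8 reached 10% of OPC-like cells at dpi 35. Without neuronal-marker cells, chosen after the data were seen, 1 gene was higher and 3 lower in PDGFRa-GFP C1 cells at P6 than at P3, with Dcx at 2.77 and Stmn2 at 0.37, and 5 were higher and 1 lower in hGFAP-GFP. With the highest cell of each gene also left out, 2 were higher and 1 lower in PDGFRa-GFP, with Dcx at 1.904, Stmn2 at 0.22, Tubb3 at 0.42 and Map1b at 1.67, so that 1 cell set the sign for Tubb3 and for Map1b. Except for fewer genes under thinning, the cause was not tested. No paired analysis was possible because each droplet group is 1 library, and the numbers that C1 titles share across sets each name a different single cell, with no label tying them. Small classes hold few UMIs, such as 3 of Stmn4 in 41 oligodendrocyte-like cells, and their levels are the least precise.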
